A study of Schizosaccharomyces pombe with 4 samples.

Results

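The long terminal repeats (LTRs) and Tf2 retrotransposons of the fission yeast Schizosaccharomyces pombe were examined on tiling arrays hybridised with DNA that had been immunoprecipitated (ChIP) with Rad52, a recombination protein. Members were all reference features annotated as a Tf2 retrotransposon or an LTR on chromosome I (only left of the centromere region), II or III, with the midpoint of at least 1 array probe inside. This gave 80 LTRs, out of 206 LTRs on that part of the genome and 238 in the whole reference, and out of 10055 annotated features with a probe. None of the 9 Tf2 retrotransposons on that part held a probe, so the label covers only LTRs here, and the Tf2 elements were followed through the DNA beside them. The 80 LTRs lay at 75 places more than 2 kb apart, with 18 on chromosome I, 26 on chromosome II and 36 on chromosome III.

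There were 2 arrays of cdc25-22 rif1Δ cells and 2 of cdc25-22 rif1Δ rad3Δ cells, so all cells carried the cdc25-22 allele, which blocks entry into mitosis at high temperature, and all lacked Rif1. Per the labels, cells were held for 4 h at 36.5 °C, released at 25 °C and given 6 mM hydroxyurea, which lowers nucleotide pools and slows replication forks. Each array carried ChIP DNA in Cy3 and input DNA in Cy5, and a level is the log2 of ChIP over input, centred on the array's median, so 0 is the typical probe and 1 is 2-fold above it. The labels do not say whether the replicates of a strain were grown separately. P-values therefore measure only how far these arrays differ, which may be technical, and no ChIP without Rad52 was analysed here.

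Tf elements are retrotransposons that copy themselves through an RNA intermediate and insert the DNA copy at new places. Each element is bounded by an LTR at either end, and recombination between both LTRs removes the body and leaves a single solo LTR, the form in which most old insertions survive. In fission yeast the DNA-binding protein Sap1 binds LTRs and can arrest replication forks there, while CENP-B homologues such as Cbp1 act at LTRs in silencing and fork protection. Rad52 anneals complementary DNA strands and acts in recombination at broken or stalled forks. Rif1 restrains the firing of replication origins, and Rad3, the homologue of human ATR, is the checkpoint kinase that responds to stalled forks.

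Sequences are given first because they decide which copies a probe could tell apart. The first is the upstream LTR of Tf2-1, read on its own strand at chrI:1465332-1465631 of the reference build ASM294v3, which no probe covers. The others are LTRs on which the results turn, read on the LTR's annotated strand and named by their neighbouring genes. They are shown up to base 300 of each LTR. Capitals mark the motif CACTATATGT, the 10-base run that the most LTRs share.

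Upstream LTR of Tf2-1: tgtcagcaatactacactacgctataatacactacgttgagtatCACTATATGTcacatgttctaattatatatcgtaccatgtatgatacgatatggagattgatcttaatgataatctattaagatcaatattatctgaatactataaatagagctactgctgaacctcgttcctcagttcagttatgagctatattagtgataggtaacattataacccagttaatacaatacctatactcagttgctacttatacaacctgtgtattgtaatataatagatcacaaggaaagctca

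LTR between ent1 and vps60, chrIII:1574724-1575023, plus strand: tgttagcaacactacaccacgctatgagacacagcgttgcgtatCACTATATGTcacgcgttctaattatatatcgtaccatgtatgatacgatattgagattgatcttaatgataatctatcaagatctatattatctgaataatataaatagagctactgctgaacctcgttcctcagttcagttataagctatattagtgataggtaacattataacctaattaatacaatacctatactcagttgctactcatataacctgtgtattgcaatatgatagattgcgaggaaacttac

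LTR between pfl4 and SPCC188.14, chrIII:1496536-1496835, plus strand: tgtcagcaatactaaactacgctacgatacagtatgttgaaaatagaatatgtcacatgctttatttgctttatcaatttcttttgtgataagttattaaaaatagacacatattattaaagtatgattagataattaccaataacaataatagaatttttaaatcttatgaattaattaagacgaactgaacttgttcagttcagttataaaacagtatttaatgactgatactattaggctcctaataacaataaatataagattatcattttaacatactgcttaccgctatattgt

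LTR between SPBC337.02C and rhn1, chrII:1034432-1034731, minus strand: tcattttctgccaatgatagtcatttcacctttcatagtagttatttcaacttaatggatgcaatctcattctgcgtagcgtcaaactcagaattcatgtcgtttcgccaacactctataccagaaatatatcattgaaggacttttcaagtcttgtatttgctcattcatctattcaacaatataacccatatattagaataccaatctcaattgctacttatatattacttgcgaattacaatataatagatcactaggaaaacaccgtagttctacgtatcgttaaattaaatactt

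LTR between wtf25 and SPCC1919.07, chrIII:2220455-2220754, minus strand: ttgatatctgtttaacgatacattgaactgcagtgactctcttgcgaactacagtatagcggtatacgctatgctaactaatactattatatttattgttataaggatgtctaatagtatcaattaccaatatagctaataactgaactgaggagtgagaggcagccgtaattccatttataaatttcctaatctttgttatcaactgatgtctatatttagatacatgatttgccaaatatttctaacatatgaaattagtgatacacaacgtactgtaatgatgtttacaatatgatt

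LTR upstream of tps1, over dbl4, chrI:3478114-3478322, minus strand: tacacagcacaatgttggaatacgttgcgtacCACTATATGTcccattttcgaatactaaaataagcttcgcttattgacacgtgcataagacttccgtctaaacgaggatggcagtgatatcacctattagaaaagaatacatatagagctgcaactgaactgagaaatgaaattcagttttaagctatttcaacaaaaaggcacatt

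LTR between ekc1 and wtf14, chrIII:1629575-1629874, minus strand: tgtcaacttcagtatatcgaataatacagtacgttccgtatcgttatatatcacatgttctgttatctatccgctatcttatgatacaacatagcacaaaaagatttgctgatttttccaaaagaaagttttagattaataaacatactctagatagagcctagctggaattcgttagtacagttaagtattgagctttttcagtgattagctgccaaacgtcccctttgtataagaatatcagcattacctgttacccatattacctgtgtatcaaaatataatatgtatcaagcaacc

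The copy between ent1 and vps60 aligned to 99.7% of the Tf2-1 LTR at 90.3% identity, and the copy beside SPBC337.02C to 38.1% of it at 78.9% identity. The motif, searched on both strands, lay in 25 of the 80 LTRs with a probe (31.2%) and in 111 of all 206 LTRs (53.9%). It lay in 126 of 31549 windows of 339 bp laid end to end along the same chromosomes, LTRs included (0.399%). Because the motif was picked as the run most LTRs share, its higher share in LTRs was set by that choice. The 126 LTRs without a probe had a median of 23 copies in the genome at 90% identity or more, their own place included, against 1 for the 80 with a probe, of which 74 were single copies. Median identity to the aligned part of the Tf2-1 LTR was 75.5% for LTRs with a probe and 85.2% for those without. The arrays thus measured mostly diverged single-copy LTRs, and no member lay within 1 kb of a Tf2 element.

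The members were short and rich in A+T. Their length ran from 139 to 374 bp with a median of 340 bp, and 15 of them kept the TG start and CA end of an intact LTR. Median A+T content was 68.2%. One probe covered each of 71 members and 2 probes each of 9. There were 8 members that overlapped a coding gene, 37 that lay between divergent genes, 33 between genes of the same direction and 2 between convergent genes. Only 2 lay within 1 kb of a tRNA gene, of which the LTR at chrI:446075-446342 began 4 bp from the tRNA gene SPATRNAVAL.01.

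Input signal was set beside the agreement of replicates. In rif1Δ the gap between replicates was wider at LTRs with a lower input (Spearman's rho -0.39), and the part of input in it was not tested. Median input signal of LTR probes was 59.3% and 70.8% of the array median on the rif1Δ arrays and 57.9% and 73.6% on the rif1Δ rad3Δ arrays. All probes were well above background in both channels on all 4 arrays at 61 LTRs, and a probe was not so on 1 or more arrays at the other 19. Across the 80 LTRs the rif1Δ replicates correlated at r = -0.029 and the rif1Δ rad3Δ replicates at r = 0.77. Across the 61 brighter LTRs the same correlations were 0.46 and 0.82, and across 1845 annotated features with a single probe they were 0.50 and 0.75. These describe sites that share a library, not replicates. The LTR between the transporter gene caf5 and pob3, which encodes a subunit of the histone chaperone FACT, stood at 2.09 and -0.72 on the rif1Δ arrays, with an input of 3.53% and 24.5% of the median. The LTR between wtf23 and mug163 stood at 1.57 and -0.96, with an input of 6.22% and 22.6%. Both pairs span 0, and neither mean was taken as a level.

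**Figure D1:**
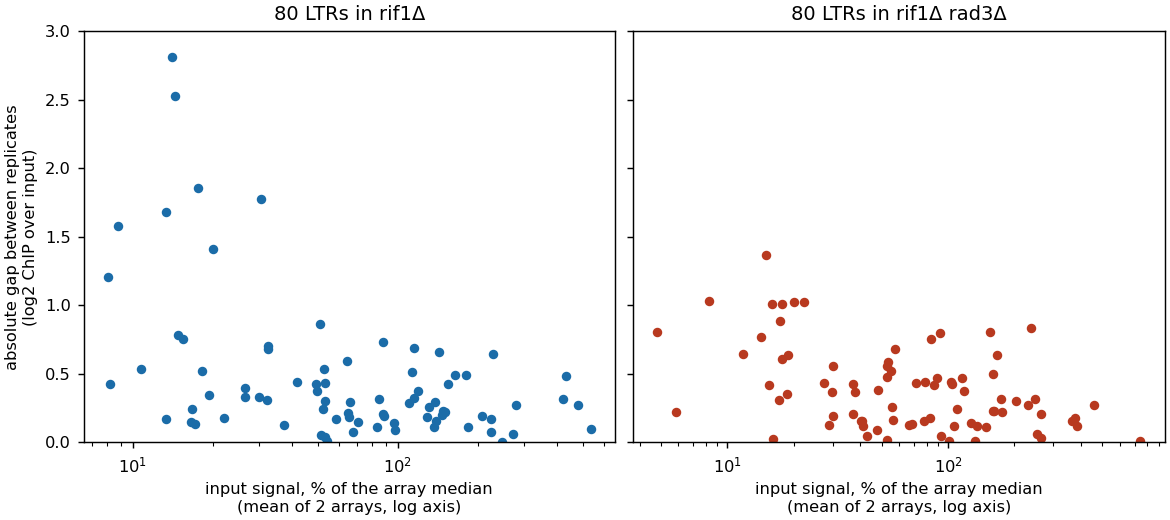
Gap between the replicate arrays (log2 ChIP over input, vertical) against input signal as a percentage of the array median (log axis) for 80 LTRs, 1 point each, in each strain. In rif1Δ the widest gaps, such as 2.09 against -0.72 beside caf5, lie at the dim end of the input.

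Facts of the whole series that bear on these values are few. The deleted genes checked the strains: input signal over rif1 was 3.48% of the array median or less on every array, and input over rad3 was 78.5% or more in rif1Δ and 1.82% or less in rif1Δ rad3Δ. The input of the rif1Δ rad3Δ arrays is labelled cdc25-22 alone, which these low signals contradict. Replicate 2 of rif1Δ rad3Δ was read with another extraction protocol, and its noise from probe to probe (the header's derivative log ratio spread) reached 0.452, where the other arrays had at most 0.321. The replicate 1 arrays of both strains lay on a single slide.

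In rif1Δ cells, the LTRs as a group lay near the genome's typical level. Their median level was -0.080, against -0.019 over all 10055 features, and 31 of 80 lay above 0. None was called above or below 0 (limma, adjusted p below 0.05), where 1.14% of all features were called above and 0.0796% below. At an unadjusted p below 0.05 there were 18 LTRs, and the lowest adjusted p was 0.0527. The LTR medians of the replicates, 0.023 and -0.17, lay on either side of 0. Means ran from -0.86 to 0.72 with an SD over LTRs of 0.31, against 0.40 over single-probe features.

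**Figure D2:**
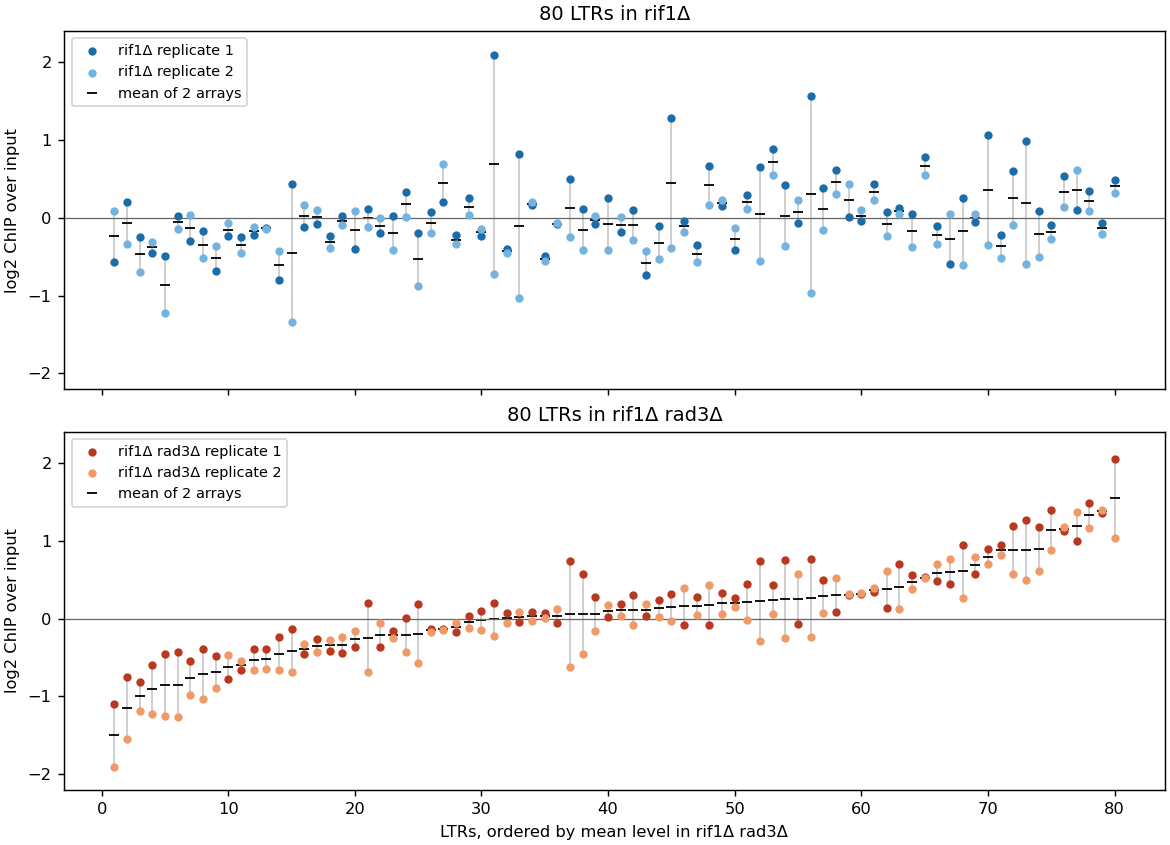
Level (log2 ChIP over input) of 80 LTRs on each array, in rif1Δ (upper panel) and rif1Δ rad3Δ (lower panel), ordered along the horizontal axis by mean level in rif1Δ rad3Δ. Points are arrays, grey bars join replicates and dashes are means. Means run from -0.86 to 0.72 in rif1Δ and from -1.50 to 1.55 in rif1Δ rad3Δ.

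The highest LTRs in rif1Δ whose arrays lay together were on chromosome III. The LTR between SPCC737.04 and SPCC737.05 (chrIII:1894223-1894553) stood at 0.88 and 0.55, a mean of 0.72 ± 0.23 (SD, n = 2; limma, adjusted p = 0.0733). The LTR between dga1, which makes storage lipid, and the spore killer gene wtf4 (chrIII:218342-218642), covered by 2 probes, stood at 0.79 and 0.55, a mean of 0.67 ± 0.17 (SD, n = 2; limma, adjusted p = 0.0527). Both lay above 0 on each array without passing the test. The LTR between the RNA polymerase I gene rpa2 and alp5 (chrII:2012305-2012648) stood at 0.61 and 0.31, and that between SPCP20C8.02C and new22 near the left end of chromosome III (chrIII:31728-31925) at 0.21 and 0.70. The LTR between pan5 and the galactose gene gal7 (chrII:4481838-4482117) stood at 0.66 and 0.17, and that between pcs60 and vms1 (chrIII:2380886-2381185) at 0.49 and 0.32. The other two of the 8 highest means, at the caf5 copy and at a copy beside coa6 (chrII:2339945-2340297; 1.29 and -0.39), rested on 1 array each. The lowest means were at the LTR between the dynamin gene vps1 and cid16 (chrI:1999638-1999964; -0.49 and -1.23), between the importin gene cut15 and the ribosomal protein gene rps1201 (chrIII:552825-552963; -0.79 and -0.42) and between the forkhead factor gene sep1 and dss4 (chrII:3136259-3136520; -0.73 and -0.42).

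In rif1Δ rad3Δ cells, LTRs spread both ways. The median level was 0.10, against 0.029 over all features. Of the 80 LTRs, 16 were called above 0 (20%) and 17 below (21.2%), where 23.5% of all features were called above and 21.2% below. In this fit the shares of LTRs called were thus close to those of all features in both directions. Of the 1845 features with a single probe, as most LTRs have, 26.0% were called above and 19.9% below. The spread of LTR means was an SD of 0.59, against 0.62 over single-probe features. Of the 17 called below 0, 5 had a probe not well above background on 1 or more arrays, as had 1 of the 16 above. With dim probes dropped, 15 of 63 LTRs were called above (23.8%) and 14 below (22.2%). Then 24.8% and 23.2% of all features were called. With the trend on A+T content removed, 12 were called above (15%) and 20 below (25%), where 22.8% and 19.5% of all features were, and the median turned to -0.097 while that of all features was 0.031. Without replicate 2 of this strain, 11 were called above (13.8%) and 6 below (7.5%), where 14.3% and 9.07% of all features were.

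The 8 highest LTRs in rif1Δ rad3Δ were led by the copy between pcs60 and vms1, at 2.06 and 1.03 (mean 1.55 ± 0.73, SD, n = 2; limma, adjusted p = 0.0064). The copy between SPBC337.02C and rhn1, a gene of transcription termination, stood at 1.36 and 1.39 (adjusted p = 0.00283). The copy between ent1, an epsin gene of endocytosis, and vps60 stood at 1.49 and 1.17 (adjusted p = 0.0033). The first pair of arrays differed by over 1 on the log2 scale and the other pairs by much less. The copy over dbl4 stood at 0.996 and 1.37, that between the splicing factor gene cwf18 and the ribosome assembly gene nsa2 (chrIII:2405874-2406228) at 1.13 and 1.18, and that between wtf25 and SPCC1919.07 at 1.40 and 0.88. The copy between are2 and apl4 (chrIII:2400868-2401095) stood at 1.18 and 0.62. These 4 were called above 0 (adjusted p from 0.00392 to 0.0155), and the copy between amk2 and SPCC1919.04 (chrIII:2210258-2210588), at 1.27 and 0.50 with an input of 14.6% and 13.8%, was not (adjusted p = 0.107).

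The lowest LTR in rif1Δ rad3Δ lay between ekc1, a phosphatase regulator gene, and wtf14 (chrIII:1629525-1629874), at -1.10 and -1.90 (mean -1.50 ± 0.57, SD, n = 2; limma, adjusted p = 0.00701). The LTR between the TFIID gene taf6 and the retromer gene vps5 (chrIII:702136-702501) stood at -0.82 and -1.18 (adjusted p = 0.00626). Both were called below 0. At the LTR between ddx27 and SPAC30D11.02C (chrI:1118434-1118790) no array had both channels well above background, so its low values are not read as a level.

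Between the strains, 7 LTRs rose in rif1Δ rad3Δ and none fell (limma, adjusted p below 0.05). These are 8.75% of the LTRs, where 5.89% of all features were called higher and 2.45% lower. Of the features with a single probe, 6.40% were called higher and 2.98% lower. The median difference was 0.10 over the LTRs and 0.0096 over all features, and 47 of 80 differences were positive. With the A+T trend removed the LTR median turned to -0.086, against 0.015 over all features. Then 4 LTRs were called higher (5%), where 2.5% of all features were. Arrays of the strains did not overlap at 24 LTRs higher and 18 lower in rif1Δ rad3Δ, where 33.4% of all features lay higher without overlap and 31.2% lower. For features with a single probe these shares were 29.7% and 25.4%.

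The largest measured difference was at the LTR between SPBC337.02C and rhn1 (chrII:1034420-1034731). It stood at -0.061 and -0.21 in rif1Δ and at 1.36 and 1.39 in rif1Δ rad3Δ. Both rif1Δ rad3Δ arrays lay far above both rif1Δ arrays, and the difference was 1.51 ± 0.14 (SE, n = 2 against 2; limma, adjusted p = 0.0331). Its single probe had an input of 15.2% to 17.2% of the median and was well above background on 3 of 4 arrays, so this LTR leaves the test when dim probes are dropped.

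The LTR between wtf25, of the wtf family of genes that kill spores not inheriting them, and SPCC1919.07 (chrIII:2220430-2220754) stood at -0.097 and -0.27 in rif1Δ and at 1.40 and 0.88 in rif1Δ rad3Δ. It moved from below the genome's median to well above it, by 1.32 ± 0.21 (SE; limma, adjusted p = 0.0375). The LTR between pfl4, which encodes a cell-surface flocculin, and SPCC188.14 (chrIII:1496536-1496879) stood at -0.22 and -0.51, then at 0.94 and 0.82. It too changed sides of 0, by 1.25 ± 0.16 (SE; limma, adjusted p = 0.035). At 74.7% A+T it was among the most A+T-rich members.

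The LTR between ent1 and vps60 (chrIII:1574724-1575071), with 38 copies in the genome and a probe that matches 3 places at 90% identity or more, stood at 0.35 and 0.091 in rif1Δ and at 1.49 and 1.17 in rif1Δ rad3Δ. It rose by 1.11 ± 0.18 (SE; limma, adjusted p = 0.0375), and signal from other copies cannot be told apart there. The LTR between cwf18 and nsa2 stood at 0.54 and 0.14, then at 1.13 and 1.18, a rise of 0.82 ± 0.17 (SE; limma, adjusted p = 0.0491).

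The other two that rose were smaller changes and are named because their values passed. The LTR between the polarity gene tea4 and the mitochondrial fusion gene fzo1 (chrII:593824-594176), with 2 probes, stood at -0.11 and -0.34, then at 0.48 and 0.71 (adjusted p = 0.0457). The LTR between hsp3101 and SPCC757.04 (chrIII:49206-49550) stood at -0.058 and 0.056, then at 0.57 and 0.80 (adjusted p = 0.0497), and its probe matches 2 places at 90% identity or more, so signal from the other place cannot be told apart. Each had both rif1Δ rad3Δ arrays above both rif1Δ arrays. All 7 differences stayed positive in each alternative that could be run, from 0.50 to 1.73, and on the single slide that held both replicate 1 arrays they ran from 0.59 to 1.49. The 7 were picked for a rise on these same arrays, so the kept sign is no separate support. The calls were less stable. With any 1 array left out, a strain rested on 1 array and fewer of the 7 passed, or none, and calls over all features fell as well. The differences then ran from 0.63 to 1.59 and from 0.62 to 1.44 without rif1Δ replicates 1 and 2. Without rif1Δ rad3Δ replicates 1 and 2 they ran from 0.80 to 1.53 and from 0.57 to 1.58. With all arrays scaled to a single spread none was called, with 20 LTRs at an unadjusted p below 0.05. In that fit 0.00995% of all features were called higher and 0.0696% lower.

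Large differences that did not pass lay in both directions. The copies between pcs60 and vms1 and between are2 and apl4 were higher in rif1Δ rad3Δ by 1.14 and 1.11 without overlap of arrays (adjusted p = 0.0793 and 0.0606). The copy between ekc1 and wtf14 stood at -0.57 and 0.094 in rif1Δ and at -1.10 and -1.90 in rif1Δ rad3Δ, a difference of -1.26 ± 0.33 (SE; limma, adjusted p = 0.0672). The copies beside SPAPJ695.02 (chrI:73945-74282) and between fbh1, a DNA helicase gene, and cdh1 (chrII:2736508-2736743) differed by -0.79 and -0.63. The copies beside new22 and between kcs1 and raf2 (chrIII:500370-500717) differed by -0.59 and -0.53. Adjusted p for these 4 ran from 0.0988 to 0.171.

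Each LTR was then set against its own flanks, the mean of the probes within 2 kb on both sides and outside every repeat. This asks whether the LTR stands out from its surroundings. In rif1Δ rad3Δ, LTR level and flank level went together across the 80 LTRs (Spearman's rho 0.69, against 0.74 over all features). In rif1Δ the same rho was 0.26, against 0.50 over all features. Both levels of a pair come from the same arrays, so these are descriptions.

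**Figure D3:**
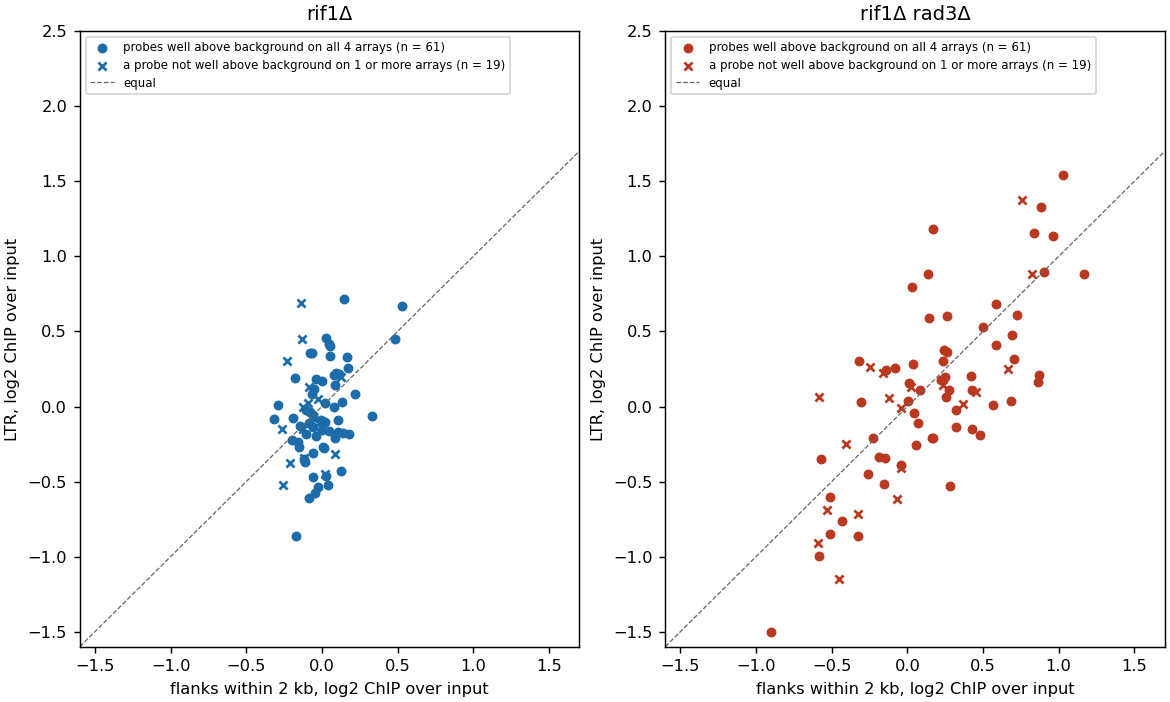
Mean level of each of 80 LTRs (vertical) against the mean level of its flanks within 2 kb (horizontal), both log2 ChIP over input, in rif1Δ and rif1Δ rad3Δ. Crosses are the 19 LTRs with a probe not well above background on 1 or more arrays, and the dashed line marks equality. Spearman's rho between LTR and flank is 0.26 in rif1Δ and 0.69 in rif1Δ rad3Δ.

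In rif1Δ, no LTR was called above or below its flanks (limma), where 0.0398% of all features were called above and 0.0% below. At an unadjusted p below 0.05 there were 19, and the lowest adjusted p was 0.0912. The median LTR lay at -0.027 against its flanks, and the median feature at -0.011. Of the 5 largest excesses in this strain, those beside caf5, coa6 and wtf23 rested on a single high array. The others were 0.57 at the SPCC737.04 copy and 0.44 at the copy over dbl4 (limma, adjusted p = 0.122 and 0.313). At the dbl4 copy the arrays stood at 0.094 and 0.78 over its flanks, so most of that mean came from replicate 2.

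In rif1Δ rad3Δ, 7 LTRs stood above their flanks (8.75%) and 9 below (11.2%), where 6.97% of all features were called above and 8.41% below. The median LTR lay at -0.13 against its flanks, and the median feature at -0.030. Without replicate 2 of this strain, whose noise was the highest, 2 LTRs were called above and 1 below, where 1.52% and 0.537% of all features were. With normexp background correction the median turned to 0.082.

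The LTR over dbl4 and upstream of the trehalose synthase gene tps1 (chrI:3478114-3478322) stood out most. It measured 0.996 and 1.37 in rif1Δ rad3Δ over flanks of 0.27 and 0.071, an excess of 1.02 ± 0.19 (SE, n = 2; limma, adjusted p = 0.0199). Its input was 89.6% to 145% of the median, so it was not a dim probe, and it carries the motif. In rif1Δ it stood at 0.11 and 0.61 over flanks of 0.011 and -0.17.

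The LTR beside pfl4 stood 0.75 ± 0.10 above its flanks (SE; limma, adjusted p = 0.0116), since its flanks lay at only 0.17 and 0.10 while it measured 0.94 and 0.82. The LTR between SPBC337.02C and rhn1 stood 0.62 above flanks that were themselves at 0.72 and 0.80 (adjusted p = 0.0155). That between rpa2 and alp5 stood 0.62 above flanks at -0.31 and -0.33 (adjusted p = 0.027). The list thus holds excesses over raised flanks and over low ones. The other LTRs called above their flanks lay between pcs60 and vms1 (0.52), between tea4 and fzo1 (0.45) and between ent1 and vps60 (0.44). The copies between kap113 and lap2 (chrIII:1296337-1296666; 0.77) and over atp25 and apm4 (chrI:402409-402782; 0.64) had large means without passing (adjusted p = 0.0623 and 0.111). The mean at the atp25 copy rested on 1 array, with 1.22 and 0.065 against its flanks. Its levels of 0.57 and -0.45 span 0, and its input was 10.5% and 34.0% of the median.

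The copy between wtf25 and SPCC1919.07, one of the largest rises, did not pass against its flanks. It stood 0.17 ± 0.11 above them (SE; limma, adjusted p = 0.307), and the flanks themselves were at 1.15 and 0.78 in rif1Δ rad3Δ against -0.10 on each rif1Δ array. The copy between are2 and apl4 lay at -0.0027 against flanks of 1.20 and 0.60. At both places the flanks were raised as well. The difference between strains in LTR over flank was not called at any of the 80 LTRs or at any of the 10055 features (limma; 0.0% of features higher and 0.0% lower; 12 LTRs at an unadjusted p below 0.05, lowest adjusted p 0.116).

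The lowest against its flanks was the LTR between cir2 and the cytokinesis gene cdc15 (chrI:1398600-1398936), named because it had the largest deficit. It stood at -0.39 and -0.67 in rif1Δ rad3Δ beside flanks at 0.24 and 0.32, a value against its flanks of -0.81 (limma, adjusted p = 0.0136). Its single probe was bright, with an input of 375% to 548% of the array median. The LTR between swp1 and cyp9 (chrIII:298890-299217), with the next largest deficit, measured 0.27 and 0.050 beside flanks with a mean of 0.86. At both places the mean of the flanks lay above 0 and the LTR below its flanks.

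Levels were also set out by place on the chromosomes. In rif1Δ rad3Δ the median LTR level was -0.057 on chromosome I, 0.059 on chromosome II and 0.23 on chromosome III. In the last 310 kb of chromosome III, a stretch chosen after its values were seen, the 10 LTRs had a median of 0.88 and their flanks of 0.83, and in rif1Δ the same medians were 0.11 and 0.053. Of these 10, 5 were called above 0 in rif1Δ rad3Δ and 2 rose between strains, where 23.5% and 5.89% of all features did. Features of this stretch other than LTRs were not counted. The 10 LTRs had a median input of 26.4% of the array median, against 74.6% at the other 70. The part of input in the result was not tested. The other 70 LTRs had a median of 0.047 in rif1Δ rad3Δ. Of them 11 were called above and 17 below, where 23.5% and 21.2% of all features were. Leaving out all LTRs within 50 kb of a chromosome end or in this stretch kept 68 LTRs and 4 of the 7 rises.

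The arrangement of neighbouring genes was compared next. The 37 LTRs between divergent genes had a median difference between strains of 0.20, with 28 of 37 positive and 5 called, and the 33 between genes of the same direction a median of -0.072, with 14 positive and 2 called. The 8 divergent LTRs in the last 310 kb of chromosome III all had positive differences, and without that stretch the divergent median was 0.16 (20 of 29 positive, 3 called) and the same-direction median -0.10 (13 of 31 positive, 2 called). Over all features the median difference was 0.0096 and 5.89% were called higher. Features other than LTRs were not split by arrangement. The 12 LTRs over or within 2 kb of a wtf gene had a median difference of 0.049, with 1 called. The copy nearest a tRNA gene (chrI:446075-446342) and the other within 1 kb of one had a median level of 0.23 in rif1Δ rad3Δ. Of these 2, 1 was called above 0, where 23.5% of all features were. The 12 LTRs within 10 kb of a tRNA gene had a median of 0.10, as had the 80 in all.

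Levels were then set beside features of the LTR sequence. The 25 LTRs with the motif had a median level of -0.026 in rif1Δ and 0.061 in rif1Δ rad3Δ, and the 55 without it of -0.090 and 0.11. Across the 80 LTRs in rif1Δ rad3Δ, Spearman's rho of level was 0.038 with A+T content and -0.091 with length. It was 0.22 with identity to the aligned part of the Tf2-1 LTR. That part was short at some LTRs, such as chrI:446075-446342 with 100% identity over 4.01% of it, so this rho does not measure likeness over the whole LTR. The 15 LTRs with TG and CA ends had a median of 0.061, and the 65 others of 0.11. These are descriptions over sites that share the same arrays.

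Averaged over probes, the DNA 250 to 2000 bp from LTRs sat in a shallow rise in rif1Δ rad3Δ. Inside LTRs and within 250 bp of them, the mean lay above 0 only on replicate 1 of this strain. Each probe was placed by its distance from the nearest of the 206 LTRs, so LTRs without a probe entered through their surroundings. At 500 to 1000 bp, the 522 probes had a mean of 0.23 and 0.12 on the rif1Δ rad3Δ arrays and of 0.046 and 0.022 on the rif1Δ arrays. Inside LTRs the 88 probes had means of 0.20 and -0.030 in rif1Δ rad3Δ, and of 0.088 and -0.20 in rif1Δ. Within 250 bp of LTRs the means were 0.17 and -0.017 in rif1Δ rad3Δ, and the rif1Δ replicates lay on opposite sides of 0 inside LTRs and in both bins up to 500 bp. Beyond 10 kb all 4 means lay between -0.0027 and 0.035. Median A+T content around the probe fell from 68.2% inside LTRs to 65% at 500 to 1000 bp and 63.8% beyond 10 kb, and its part in these means was not tested.

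**Figure D4:**
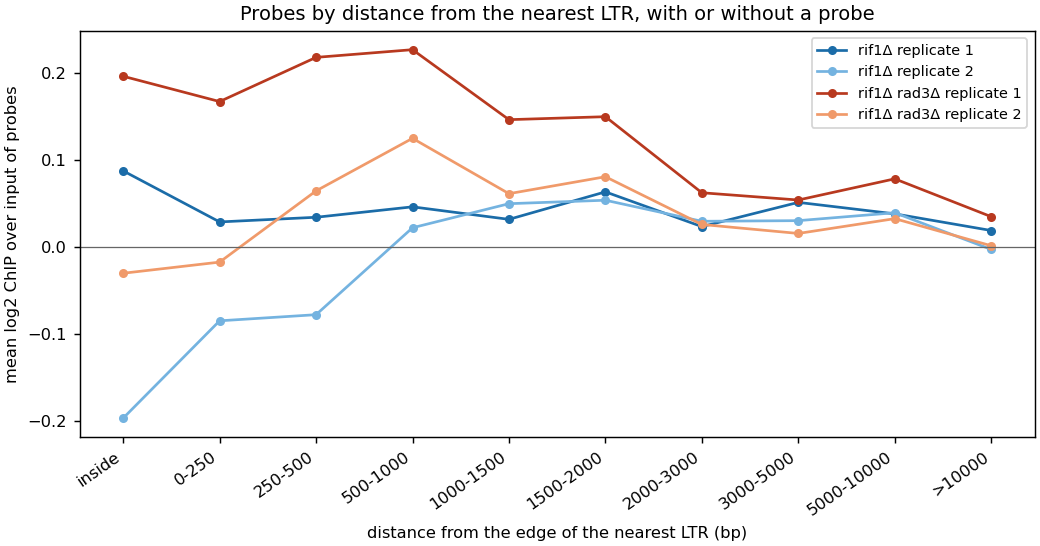
Mean log2 ChIP over input of probes on each of the 4 arrays against distance from the edge of the nearest of 206 LTRs (bp, in bins of unequal width, the first holding the 88 probes inside LTRs). At 500 to 1000 bp both rif1Δ rad3Δ arrays (0.23 and 0.12) lie above both rif1Δ arrays (0.046 and 0.022), and inside LTRs the replicates part.

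The 9 Tf2 elements were full length, each with an LTR at both ends, and were described by the unique DNA within 2 kb of them, 9 to 17 probes an element. The flanks of Tf2-13 (chrIII:2320320-2324320), between taf13 and arz1, stood at 0.10 and 0.13 in rif1Δ and at 1.01 and 0.53 in rif1Δ rad3Δ. Those of Tf2-4 (chrI:3361547-3365548), beside the exonuclease gene dhp1, went the other way, from 0.077 and -0.16 to -0.90 and -1.12. Those of Tf2-1 (chrI:1465847-1469848), between the splicing helicase gene brr2 and the fork-remodelling helicase gene fml1, stood at -0.14 and -0.15, then at -0.75 and -0.70. These 3 elements hold both ends of the range seen in rif1Δ rad3Δ. At 5 to 10 kb from the element the values in rif1Δ rad3Δ were 1.14 and 0.72 around Tf2-13 and -0.75 and -0.66 around Tf2-4, so at both places the level reached well beyond the flanks, while around Tf2-1 they were 0.067 and 0.23.

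The flanks of Tf2-3 (chrI:2927204-2931205) stood at 0.42 and 0.26, then at -0.13 and -0.27. Those of Tf2-10 (chrII:1965390-1969390) stood at 0.60 and 0.61 in rif1Δ and at 0.49 and 0.61 in rif1Δ rad3Δ, the highest of the 9 in rif1Δ and about the same in both strains. Tf2-2, Tf2-9, Tf2-11 and Tf2-12 differed by -0.22, -0.12, 0.23 and -0.18. Arrays of the strains did not overlap at 6 of the 9 elements, 2 higher and 4 lower in rif1Δ rad3Δ, where 33.4% of all features lay higher and 31.2% lower without overlap. Over the 9 elements the median was 0.13 on each rif1Δ array, and -0.063 and 0.069 on the rif1Δ rad3Δ arrays. Flanks of Tf2 elements were not part of the tested table and carry no test. No level of a Tf2 body was measured here.

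**Figure D5:**
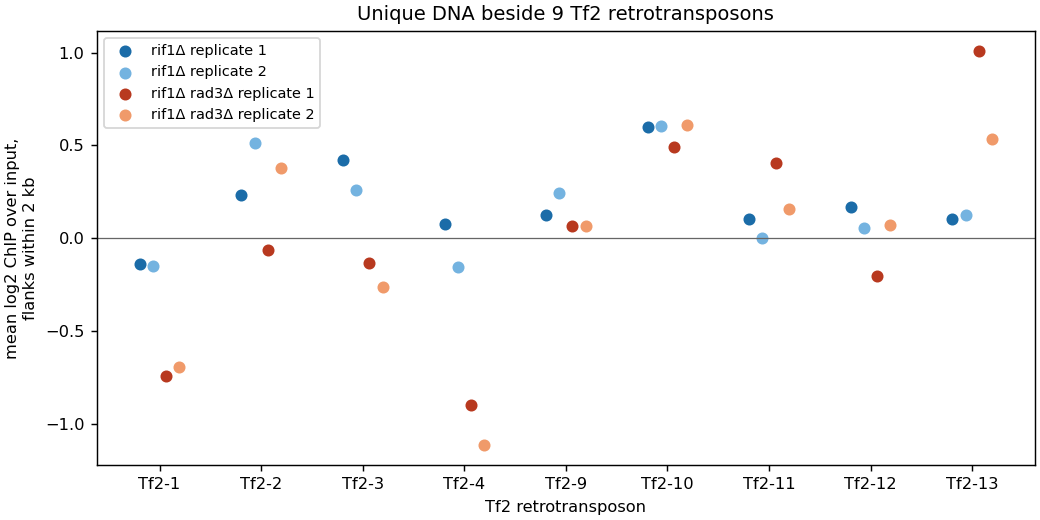
Mean log2 ChIP over input of probes in unique DNA within 2 kb of each of 9 Tf2 retrotransposons, 1 point for each array. The flanks of Tf2-13 lie highest in rif1Δ rad3Δ (1.01 and 0.53), and those of Tf2-4 lowest (-0.90 and -1.12).

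A list of 22 genes whose products bind LTRs, silence or activate Tf2, or place Tf1 was read for the ChIP signal over the genes themselves, and 19 were tested. None was called in rif1Δ, 3 were above 0 and 4 below in rif1Δ rad3Δ, and 1 differed between strains. Over all features 23.5% were called above 0, 21.2% below and 5.89% higher between strains. Over protein-coding genes these shares were 19.9%, 22.4% and 3.66%. With 19 genes, the counts over the list lie near both backgrounds. The HIRA histone chaperone gene hip1 stood at 0.14 and 0.11 in rif1Δ and at 0.79 and 0.75 in rif1Δ rad3Δ, a rise of 0.65 ± 0.13 (SE; limma, adjusted p = 0.0459). The other two above 0 were the histone deacetylase gene clr6 (0.34) and the stress factor gene atf1 (0.41), and those below were clr3 (-0.55), sre1 (-0.79), which encodes an activator of Tf2, its partner gene scp1 (-0.40) and the histone chaperone gene asf1 (-0.67). The gene of the LTR-binding protein Sap1 stood at 0.30 and 0.36 in rif1Δ and at 0.073 and 0.39 in rif1Δ rad3Δ, with overlapping arrays. The median of the 19 genes was -0.0023 in rif1Δ and 0.058 in rif1Δ rad3Δ, and that of all features -0.019 and 0.029.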

How the data were processed

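Rad52 ChIP and input were measured on 4 two-colour tiling arrays, whose 60-nt probes lie 264 bp apart at the median. Per the file headers, the deposited intensity values came from Agilent Feature Extraction 10.7.3.1 as processed signals, background-subtracted and dye-scaled, with median spot and background intensity beside them. The deposited log10 ratio was used only to check direction, and the value table the authors deposited is a linear ratio and equals Cy3 over Cy5 processed signal, uncentred. Per the file headers the design build is Feb2002 NCBI. Brightness of the probes correlated with GC content at the same coordinates of the reference ASM294v3 on chromosomes I (left of the centromere), II and III (r = 0.283, 0.288 and 0.295), so reference features were placed there, and 14.6% of probes, on the rest of chromosome I, were left out of features.

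Log2 ratios of 42548 probes (2513 control spots and 93 outliers left out) were centred on each array's median and averaged per feature. Levels, strain differences and feature-minus-flank values of all 10055 features were fitted with limma 3.58.1 (lmFit, eBayes; R 4.3.3) with a mean for each strain, with Benjamini-Hochberg adjustment over all features at 0.05. All adjusted p-values are limma's. With 2 arrays against 2, the smallest p of an exact permutation test is 0.333. Tested on simulated data of 10055 features, the strain comparison found 80.5% of log2 changes of 2 and 0.0% of those of 1, under noise that need not match the arrays. Sequence copies were sought with blastn 2.17.0. The members and lists were chosen with earlier results of these data known. Named LTRs were the 8 highest and 3 lowest in each strain, the 6 largest differences in each direction without overlap of arrays, and the 5 largest excesses over flanks in each strain. Alternatives covered background correction, normalization, centring, scaling, A+T trend, dim or repeated probes, probe summary, pairing, slide, spread model, flank width and each array left out. The number of arrays limits the precision.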

Additional observations from a re-analysis of the deposited data

Results flagged for a closer look

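At 4 LTRs the strains lay on opposite sides of 0 on all their arrays and the difference itself passed (limma, adjusted p below 0.05). The LTR between SPBC337.02C and rhn1 (chrII:1034420-1034731) was below 0 on both rif1Δ arrays and above 0 on both rif1Δ rad3Δ arrays, with a difference of 1.51 on the log2 scale, from a single dim probe that was well above background on 3 of 4 arrays. The LTR between wtf25 and SPCC1919.07 (chrIII:2220430-2220754) differed by 1.32, that between pfl4 and SPCC188.14 (chrIII:1496536-1496879) by 1.25 and that between tea4 and fzo1 (chrII:593824-594176) by 0.81. With 2 arrays a strain, no array could be tested as standing apart from its group.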

How the results depend on the processing

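Counts of LTRs called moved with the processing, and the cause was not tested except where fewer LTRs or arrays were left. Shares called over all features moved too. Between strains the share of features went from 8.33% to 3.66% with normexp, 12.2% with loess and 0.0796% with a single spread. It was 3.11% with the A+T trend removed and 19.4% with 2 or more probes. LTRs went from 8.75% to 2.5%, 16.2% and 0.0%, then 5% and 33.3%. The difference over flanks with a spread trend was called at 4.23% of features and 1.25% of LTRs. In rif1Δ, where none was called, the count against 0 was 2 with normexp, 4 with loess and 8 with a single spread. Of all features 3.58%, 2.39% and 8.82% were called there, against 2.5%, 5% and 10% of the LTRs. The count was 1 each with the A+T trend removed, bright probes, the median of probes or a spread trend. It was 2 of the 9 LTRs with 2 or more probes. In these 5 settings 1.27%, 1.95%, 1.92%, 5.86% and 3.89% of the features tested were called. Leaving out an array gave 0 to 2. Against flanks in rif1Δ, it was 4 with a single spread, 1 of the 9 with 2 or more probes, and 0 to 4 without an array. In rif1Δ rad3Δ, the 33 calls became 20 with a single spread and 3 of 9 with 2 or more probes, and 17 to 32 without an array. The 16 calls against flanks became 25 with loess, 0 with a single spread (23 LTRs at an unadjusted p below 0.05), 4 of 9 with 2 or more probes and 10 with flanks of 1 kb, and 3 to 15 without an array. The 7 strain differences became 2 with normexp, 13 with loess (11 higher, 2 lower), 0 with a single spread, 4 with the A+T trend removed and 3 of 9 with 2 or more probes, 0 to 5 without an array, and 4 without LTRs near chromosome ends, an alternative chosen after seeing the data. The strain difference over flanks gave 1 with a spread trend on probe number and 0 without any 1 array (10 to 17 LTRs at an unadjusted p below 0.05 in limma). At the dim LTR between ddx27 and SPAC30D11.02C, the called level in rif1Δ rad3Δ reversed to 0.27 with normexp. Against flanks in rif1Δ, a single spread called 4.49% of all features and 5% of LTRs. In rif1Δ rad3Δ against 0, it took features from 44.7% to 25.7% and LTRs from 41.2% to 25%. Against flanks there, features went from 15.4% to 22.2% with loess, 0.0% with a single spread and 9.6% with flanks of 1 kb. LTRs went from 20% to 31.2%, 0.0% and 12.5%. With 2 or more probes these shares were 2.16%, 50.2% and 24.3% of features, and 11.1%, 33.3% and 44.4% of LTRs.

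Arrays share replicate numbers, which the labels do not tie to a culture or day. Deviations of same-numbered arrays correlated at 0.317 over features, and 2 pairs are too few to show pairing. With the replicate block, 9 LTRs were called in rif1Δ, 39 in rif1Δ rad3Δ, 22 between strains (17 higher, 5 lower), 11 and 38 against flanks in the respective strains, and 5 for the strain difference over flanks. Calls rose across the genome too: of all features 7.32%, 54%, 23.4%, 7.65%, 32.2% and 5.63% were called in these 6 comparisons, against 11.2%, 48.8%, 27.5%, 13.8%, 47.5% and 6.25% of the LTRs.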
